A study of Rattus norvegicus with 18 samples.

Results

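The drug efflux and uptake transporters examined here are 6 rat genes: the export pumps Abcc2, Abcc3, Abcb1b and Abcb1a and the uptake carriers Slco1a4 and Slco1b2. They were chosen by name, through the accession of each array probe, and make up 6 of the 21574 genes tested. The study compared p-dialkoxy chlorobenzenes in cultured liver cells. The cells, primary hepatocytes from male Sprague Dawley rats, had been cryopreserved, were cultured for 24 h and were then exposed for a further 24 h to DDMB, CDMB, CDEB or DDEB at 300 µM, or to the solvent DMSO. DDMB, CDMB and CDEB are set against the DMSO cultures VC_1, and DDEB against the DMSO cultures VC_2, because 2 lots of chips were used. Each of the 6 groups has 3 cultures, described as independent experiments. The labels name no animals, and the p-values rest on culture-to-culture spread, which may be technical. All cultures share the cell source, the medium and the 24 h of preculture, and the compounds are known here only by their codes.

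Each RNA sample was hybridised alone, with the dye Cy3, to 1 Agilent array. A level below is the log2 of a probe's processed intensity minus the 75th percentile of the array, so 0 is the brightness of the 75th percentile. Levels of different probes are not comparable with each other. The share of probe spots well above background ranged over the arrays between 61.0% and 64.3%, and none was saturated. All 9 hepatocyte markers examined, among them Alb and Apoa1, were well above background on all 18 arrays. Their summed signal, in multiples of the 75th percentile, was 1888 to 2511 with DDMB, 2412 to 2553 with CDMB, 2391 to 2663 with CDEB and 1847 to 2443 in VC_1, and 2843 to 3027 with DDEB against 2338 to 3057 in VC_2. Of macrophage markers 5 of 9 were measurable, of endothelial markers 3 of 7, of stellate cell markers 6 of 8, of bile duct markers 3 of 6 and of lymphocyte markers 1 of 6. Csf1r, Pecam1, Col1a1, Krt19 and Ptprc were among those that did not pass the filter on dim probes. Cd68, Clec4f, C1qb, Cd14, Lyz2, Kdr, Vwf and Cdh5 did pass it. So did Acta2, Des, Col1a2, Col3a1, Pdgfrb, Reln, Krt7, Epcam, Sox9 and Nkg7. Cells other than hepatocytes are thus not shown to be absent. No marker of any of these lists was called changed by a compound. Over all genes, the deviations of VC_2 and VC_1 arrays of the same number from their group means were correlated (r = 0.63, 0.47 and 0.81), and each array correlated best with its own number. The DMSO samples of the 2 lots are therefore not separate evidence here, and the labels do not say whether they come from the same cultures. In such bulk cultures fewer cells of a type and less RNA per cell cannot be told apart.

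Hepatocytes move drugs and bile constituents from blood to bile in steps. Carriers of the organic anion transporting polypeptide family take them up at the sinusoidal membrane, enzymes conjugate them, and ATP-driven pumps expel the products into the bile canaliculus or back into blood. The nuclear receptors PXR and CAR, the farnesoid X receptor and the stress factor NRF2 are known regulators of several of these genes in liver.

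Promoter windows are shown for 3 members that deviated together between cultures, Abcc2, Abcb1b and Slco1a4, and for Abcb1a, which neighbours Abcb1b on chromosome 4 and did not. Each window runs 5′ to 3′ along the gene, from 250 bases before to 50 bases after the annotated start (RefSeq, build GRCr8). The RefSeq promoter table matched 5 of the 6 members, all but Abcc3. Capitals mark matches, on either strand, to the nuclear receptor half-sites AGTTCA and AGGTCA, the CCAAT box, the GC box GGGCGG, the antioxidant response core TGACNNNGC, the TATA box TATAAA and the E-box CACGTG.
Abcc2, chr1:252613625-252613924, plus strand: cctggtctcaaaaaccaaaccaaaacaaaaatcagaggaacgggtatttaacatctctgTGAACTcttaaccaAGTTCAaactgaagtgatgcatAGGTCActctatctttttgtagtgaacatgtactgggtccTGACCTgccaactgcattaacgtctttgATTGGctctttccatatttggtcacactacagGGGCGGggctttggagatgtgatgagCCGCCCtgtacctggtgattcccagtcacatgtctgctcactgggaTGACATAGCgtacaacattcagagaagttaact
Abcb1b, chr4:26279980-26280279, minus strand: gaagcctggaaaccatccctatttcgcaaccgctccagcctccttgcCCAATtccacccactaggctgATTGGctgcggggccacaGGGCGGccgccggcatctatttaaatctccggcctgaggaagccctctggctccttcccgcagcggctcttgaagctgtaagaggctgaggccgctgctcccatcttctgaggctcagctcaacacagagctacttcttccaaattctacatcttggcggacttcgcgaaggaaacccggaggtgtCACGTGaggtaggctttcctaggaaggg
Slco1a4, chr4:176495797-176496096, minus strand: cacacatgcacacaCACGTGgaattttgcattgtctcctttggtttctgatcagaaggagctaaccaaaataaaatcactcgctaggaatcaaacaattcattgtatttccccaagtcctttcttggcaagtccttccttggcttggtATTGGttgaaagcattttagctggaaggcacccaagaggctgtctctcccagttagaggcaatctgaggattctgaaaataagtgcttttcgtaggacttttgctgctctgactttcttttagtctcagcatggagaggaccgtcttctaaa
Abcb1a, chr4:26397599-26397898, minus strand: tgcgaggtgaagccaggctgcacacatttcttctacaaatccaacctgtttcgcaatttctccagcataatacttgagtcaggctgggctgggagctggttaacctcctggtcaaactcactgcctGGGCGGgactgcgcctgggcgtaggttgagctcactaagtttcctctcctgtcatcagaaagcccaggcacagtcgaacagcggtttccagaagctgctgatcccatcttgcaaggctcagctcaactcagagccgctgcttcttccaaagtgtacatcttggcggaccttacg

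The Abcc2 window held 8 matches, against 4 for Abcb1b, 2 for Slco1a4, 3 for Slco1b2 and 1 for Abcb1a. In the Abcc2 window AGTTCA and AGGTCA each matched on both strands, beginning at -191, -177, -155 and -115 relative to the start, and the other matches were a CCAAT box, a pair of GC boxes and an antioxidant response core, TGACATAGC, beginning at 18 bases after it. Such letters are common: of 33469 rat promoter windows of the same length, 14.5% hold AGTTCA, 16.2% AGGTCA, 37.5% the CCAAT box, 33.1% the GC box, 12.1% TGACNNNGC, 14.2% TATAAA and 6.42% CACGTG. No 2 of the matches in these windows shared a base. The longest stretch shared by the Abcb1a and Abcb1b windows was 15 bases, tacatcttggcggac, which begins 30 bases after the Abcb1a start and 17 bases before the Abcb1b start. A match is a run of letters and says nothing of binding.

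**Figure D1:**
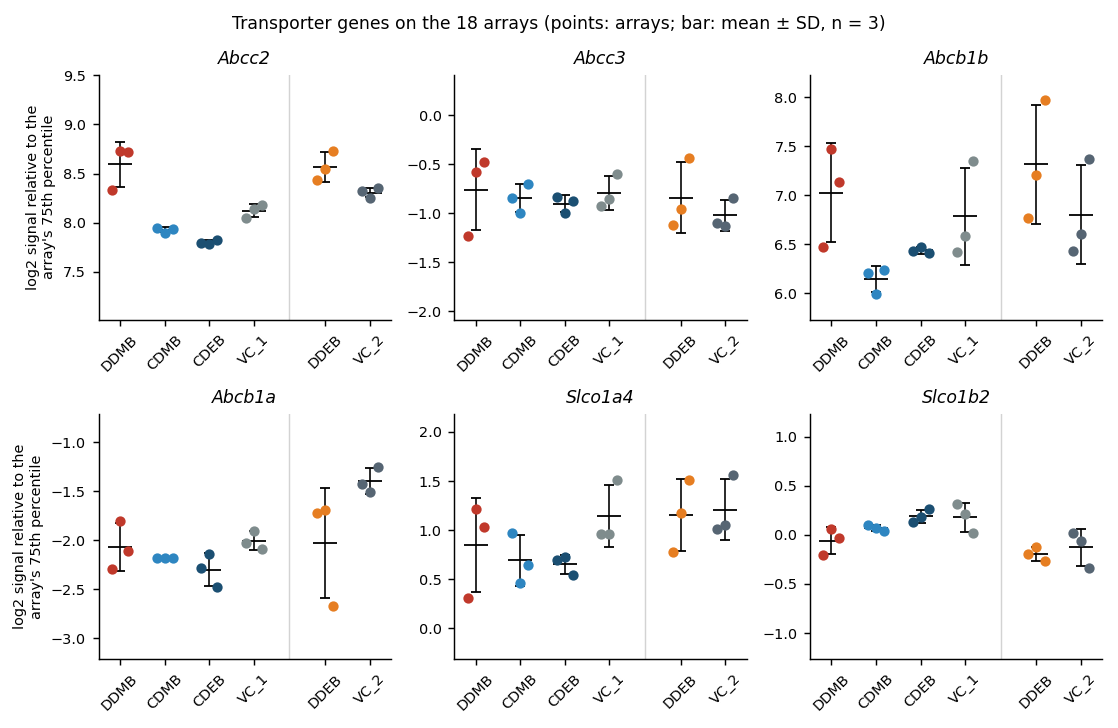
Level of each transporter gene on the 18 arrays (y axis: log2 signal relative to the array's 75th percentile, the same span of values in every panel; points: arrays; black bars: mean ± SD, n = 3). The grey line separates the groups of the 2 chip lots. Abcc2 is high with DDMB (8.33 to 8.73) and low with CDEB (7.79 to 7.83).

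Abcc2 encodes the canalicular pump for glucuronide and glutathione conjugates, bilirubin glucuronides among them. Its level was 8.33, 8.73 and 8.72 in the 3 DDMB cultures, against 8.05, 8.14 and 8.18 in the VC_1 cultures. Every DDMB array lay above every VC_1 array, and the first DDMB culture lay closest to the controls. The difference was 0.47 ± 0.10 (log2 ± SE, 95% interval 0.26 to 0.69), a 1.39-fold rise with a limma adjusted p of 0.0494. This call sits at the threshold of 0.05. Of 20 alternative settings, 5 kept it and 15 lost it, with differences of 0.41 to 0.61 throughout and adjusted p-values of 0.00264 to 0.567. The call was lost without any 1 of the VC_1 cultures (adjusted p = 0.0919 to 0.178) and without the second or the third DDMB culture (0.146 and 0.265), and kept without the first (0.00264). It was also lost with same-numbered DMSO arrays as a random block (0.0888). Another of these settings is the choice of the probes over which the 75th percentile is taken: over all probes in place of the unflagged ones the adjusted p was 0.0509. DDMB and VC_1 arrays lay on one slide, so slide does not separate these groups.

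With CDMB the Abcc2 level was 7.95, 7.90 and 7.94, and with CDEB 7.79, 7.79 and 7.83, against the same VC_1 values. All 6 arrays lay below every VC_1 array, by -0.19 ± 0.10 for CDMB (adjusted p = 0.414) and by -0.32 ± 0.10 for CDEB (adjusted p = 0.219), and neither passed limma's test. CDMB and CDEB arrays share a slide that holds no control, so the compounds cannot be told apart from the slide. A bright spike-in control, looked up after the Abcc2 values were seen, read 7.92 to 8.16 with DDMB, 7.70 to 7.73 with CDMB and 7.69 to 7.78 with CDEB, against 7.91 to 8.19 in VC_1. Its group differences from VC_1 were -0.06 for DDMB, -0.37 for CDMB and -0.33 for CDEB. Relative to this spike-in, the Abcc2 difference was 0.54 with DDMB, 0.18 with CDMB and 0.02 with CDEB, so its sign turned for CDMB and CDEB. A dim spike-in read 1.57 to 1.63 with CDMB and 1.54 to 1.67 with CDEB, against 1.86 to 2.17 in VC_1. The part of this shift in the Abcc2 values was not tested.

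With DDEB the Abcc2 level was 8.43, 8.55 and 8.72, against 8.32, 8.25 and 8.35 in VC_2. The arrays did not overlap, but the difference of 0.26 ± 0.10 (95% interval 0.05 to 0.47) had a limma adjusted p of 0.223. The third DDEB array, the highest, lay alone on a slide. Without it the groups were still separated, with 8.43 the lowest DDEB level and 8.35 the highest VC_2 level. The bright spike-in differed by -0.19 between DDEB and VC_2 arrays, and relative to it the Abcc2 difference was 0.45. The part of the spike-in shift in this value was not tested.

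Abcc3 encodes a pump of the basolateral membrane that returns conjugates to blood. It had 1 probe, as had Abcc2 and Abcb1a, and its level was -1.23, -0.57 and -0.47 with DDMB, against -0.93, -0.86 and -0.60 in VC_1. It was -0.84, -0.99 and -0.70 with CDMB and -0.83, -1.001 and -0.87 with CDEB. All these groups overlapped with the control. DDEB cultures read -1.12, -0.96 and -0.44, against -1.10, -1.12 and -0.84 in VC_2. The 4 differences from control lay between -0.11 and 0.18, with an SE of 0.20, and none passed. The widest of their 95% limits were 0.60 with DDEB and -0.53 with CDEB. These limits do not cover differences between slides, and the bright spike-in differed by -0.33 between CDEB and VC_1. Changes beyond the limits are thus not excluded.

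Abcb1b and Abcb1a encode P-glycoprotein, a canalicular pump for many uncharged and cationic drugs, which rodents carry as a pair of genes. Abcb1b read 6.47, 7.47 and 7.13 with DDMB, 6.21, 5.99 and 6.24 with CDMB and 6.43, 6.48 and 6.41 with CDEB, against 6.42, 6.58 and 7.35 in VC_1. The CDMB arrays lay below all 3 VC_1 arrays, the other groups overlapped with VC_1, and the third VC_1 culture stood 0.57 above its group mean. The differences were 0.24 ± 0.33 for DDMB (adjusted p = 0.912), -0.64 ± 0.33 for CDMB (adjusted p = 0.420) and -0.35 ± 0.33 for CDEB (adjusted p = 0.652). Without the third VC_1 array the differences were 0.53 for DDMB, -0.35 for CDMB and -0.06 for CDEB. The DDMB difference was 0.52 without the first DDMB array, 0.02 without the second and 0.06 without the first VC_1 array.

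With DDEB Abcb1b read 6.77, 7.21 and 7.97, against 6.43, 6.61 and 7.37 in VC_2, so the groups overlapped. The difference was 0.51 ± 0.33 (adjusted p = 0.488), and 0.18 without the third DDEB array on its separate slide. It was 0.80 without the third VC_2 array, 0.33 without the first VC_2 array and 0.79 without the first DDEB array. A second probe of the gene gave 0.16, -0.79, -0.50 and 0.37 for DDMB, CDMB, CDEB and DDEB, the same signs as the brighter probe.

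Abcb1a read -2.29, -1.80 and -2.11 with DDMB, -2.18, -2.18 and -2.18 with CDMB and -2.28, -2.14 and -2.47 with CDEB, against -2.03, -1.90 and -2.08 in VC_1. CDMB and CDEB arrays lay below all VC_1 arrays, by -0.18 ± 0.21 and -0.30 ± 0.21, and DDMB overlapped with VC_1 (-0.06 ± 0.21). None passed. The bright spike-in differed from VC_1 by -0.37 with CDMB and -0.33 with CDEB, and its part in the Abcb1a values was not tested. With DDEB Abcb1a read -1.72, -1.69 and -2.67, against -1.43, -1.51 and -1.25 in VC_2. Every DDEB array was lower, by -0.63 ± 0.21 on average (95% interval -1.07 to -0.19), with a limma adjusted p of 0.165. The value turns on the third DDEB array, which stood alone on its slide: without it the difference was -0.31 (adjusted p = 0.256). DDEB differences of opposite sign thus stood side by side for the neighbouring genes, 0.51 for Abcb1b and -0.63 for Abcb1a, and neither passed the test.

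Slco1a4 encodes a sinusoidal uptake carrier for organic anions, bile acids and digoxin. Its level was 0.30, 1.21 and 1.03 with DDMB, 0.97, 0.46 and 0.64 with CDMB and 0.69, 0.72 and 0.54 with CDEB, against 0.96, 0.96 and 1.51 in VC_1. The CDEB arrays lay below every VC_1 array, the others overlapped. The differences were -0.29 ± 0.25, -0.45 ± 0.25 and -0.49 ± 0.25 for DDMB, CDMB and CDEB (adjusted p = 0.799, 0.441 and 0.410), and none passed. Without the third VC_1 array they were -0.11, -0.27 and -0.31. The DDMB difference was -0.02 without the first DDMB array and -0.48 without the second. DDEB cultures read 0.77, 1.18 and 1.51, against 1.01, 1.05 and 1.57 in VC_2, a difference of -0.05 ± 0.25. The 3 probes of the gene disagreed for DDEB: the brightest gave -0.05, another 0.12 and the remaining one -0.61 ± 0.16, with a limma adjusted p of 0.0936 when all probes were fitted.

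Slco1b2 encodes the liver-specific rodent counterpart of the human OATP1B carriers, which take up bilirubin, bile acids and many drugs. Its level was -0.21, 0.06 and -0.04 with DDMB, 0.10, 0.07 and 0.04 with CDMB and 0.13, 0.18 and 0.26 with CDEB, against 0.31, 0.21 and 0.02 in VC_1. All 3 groups overlapped with VC_1. DDMB had the largest difference, -0.24 ± 0.10, at a limma adjusted p of 0.426, and those of CDMB and CDEB were -0.11 and 0.01. With DDEB it read -0.20, -0.12 and -0.27, against 0.02, -0.06 and -0.34 in VC_2, a difference of -0.07 ± 0.10. A second probe gave -0.20 for DDMB, 0.12 for CDMB, 0.26 for CDEB and -0.03 for DDEB, so the sign for CDMB depended on the probe.

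**Figure D2:**
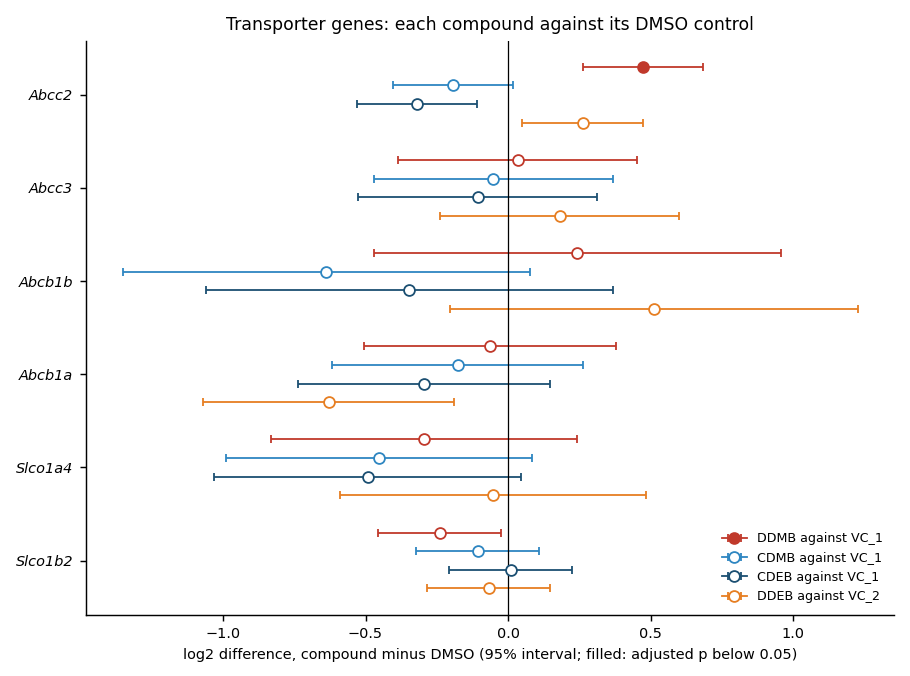
Log2 difference of each transporter gene, compound minus its DMSO control, with its 95% interval from limma (x axis; n = 3 per group). The filled point, Abcc2 with DDMB at 0.47, is the single difference with an adjusted p below 0.05.

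Across the 6 transporters, 1 was called with DDMB and none with CDMB, CDEB or DDEB. Of all 21574 genes, 0.556% were called with DDMB, 0.0417% with CDMB, 0.134% with CDEB and 0.987% with DDEB. At an unadjusted p under 0.05 stood 2 members with DDMB (Abcc2 and Slco1b2), 0 with CDMB, 1 with CDEB (Abcc2) and 2 with DDEB (Abcc2 and Abcb1a). Of all genes, 9.9% stood there with DDMB, 13.3% with CDMB, 13.3% with CDEB and 15.2% with DDEB. The median difference over the 6 genes was -0.02 with DDMB, -0.18 with CDMB, -0.31 with CDEB and 0.06 with DDEB, beside medians over all genes of 0.01, 0.01, 0.01 and 0.02. None of these values is relative to the bright spike-in, which differed from VC_1 by -0.37 with CDMB and -0.33 with CDEB. The arrays of a compound and its control did not overlap for 1 member with DDMB, 3 with CDMB, 3 with CDEB and 2 with DDEB, while this held for 14.2%, 25.5%, 29.3% and 16.5% of all genes.

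The compounds were given at one dose and one time and can be compared with each other in 6 pairs. Abcc2 was 0.67 ± 0.10 higher with DDMB than with CDMB (95% interval 0.46 to 0.88, limma adjusted p = 0.00912) and 0.79 ± 0.10 higher with DDMB than with CDEB (0.58 to 1.00, adjusted p = 0.00197), 1.59-fold and 1.73-fold. All 3 DDMB arrays lay above all 6 arrays of the other compounds; DDMB arrays did not overlap with CDMB arrays for 27% of all genes, nor with CDEB arrays for 33.7%. No other member passed in these pairs, in which 0.705% and 3.22% of all genes were called. At an unadjusted p under 0.05 stood 2 members against CDMB (Abcc2 and Abcb1b) and 2 against CDEB (Abcc2 and Slco1b2), beside 16.5% and 20.2% of all genes. The DDMB arrays and the CDMB and CDEB arrays lie on different slides, and the spike-in stood 0.31 and 0.27 higher on the DDMB arrays than on the CDMB and CDEB arrays. Relative to the spike-in the Abcc2 differences were 0.36 and 0.52. The part of the spike-in shift was not tested. With slide as a random block both calls were lost (adjusted p = 1.00 and 0.616), as they were in fits of only the arrays compared (0.184 and 0.0606). The call against CDMB was also lost without the second or the third DDMB culture (0.0556 and 0.0594) or CDMB culture (0.0540 and 0.0506).

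CDEB and CDMB share a slide. Abcc2 differed between them by -0.13 (95% interval -0.34 to 0.08), and the other members by -0.12 (Abcb1a) to 0.29 (Abcb1b). Limma called 0 of the 6 and 0 of all genes (0%) in this pair, with 1018 genes (4.72%) at an unadjusted p under 0.05 and no member among them. The arrays did not overlap for Abcc2, lower with CDEB, or for Abcb1b and Slco1b2, higher with CDEB, while this held for 19.5% of all genes.

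DDEB was compared with the others through its difference from its own control. Its Abcc2 difference was 0.21 lower than that of DDMB (-0.21, 95% interval -0.51 to 0.09), 0.45 above that of CDMB (0.16 to 0.75, adjusted p = 0.696) and 0.58 above that of CDEB (0.28 to 0.88, adjusted p = 0.479). For Abcb1b it was 1.15 above that of CDMB (0.14 to 2.16, adjusted p = 0.761). No member passed in any of these 3 pairs, in which limma called 0% of genes against DDMB, 0% against CDMB and 0.00927% against CDEB. The genes at an unadjusted p under 0.05 numbered 1249 (5.79%), 1251 (5.8%) and 1432 (6.64%), with 0, 2 (Abcc2 and Abcb1b) and 1 (Abcc2) of the members among them. These intervals and p-values take the VC_1 and VC_2 arrays as independent, although same-numbered DMSO arrays deviated together.

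**Figure D3:**
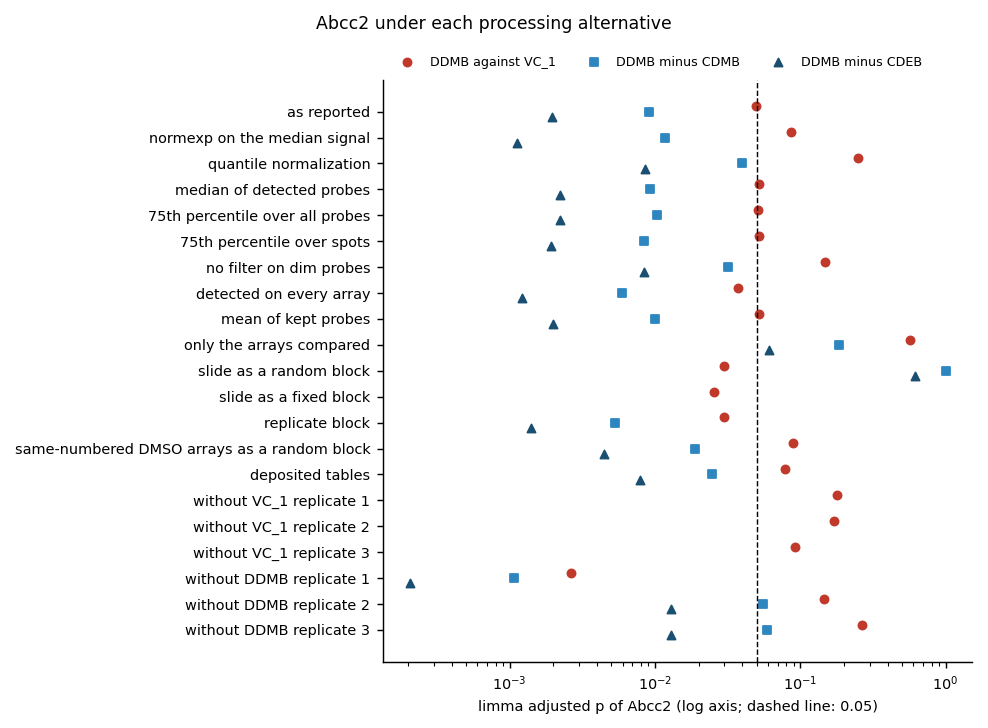
Adjusted p of Abcc2 from limma (x axis, logarithmic) as reported and under each processing alternative, for DDMB against VC_1 (circles), DDMB minus CDMB (squares) and DDMB minus CDEB (triangles). The DDMB call against VC_1 lies at 0.0494 as reported and at 0.00264 to 0.567 elsewhere. Settings that leave out a CDMB or CDEB array are not drawn.

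The DMSO samples of the 2 lots differ in lot and slide with no compound. Abcb1a was 0.61 ± 0.21 higher in VC_2 than in VC_1 (limma adjusted p = 0.0492), without overlap of the arrays, which held for 36.9% of all genes. Slco1b2 was lower in VC_2, by -0.31 ± 0.10 (adjusted p = 0.0423), with overlapping arrays, and its second probe gave 0.08. With slide as a random block neither passed (0.36, adjusted p = 0.714 for Abcb1a, and -0.34, 0.435 for Slco1b2). With any 1 of the DMSO arrays left out at most 1 of these 2 calls was kept. In the fit without a block 21.7% of all genes were called, and 32.9% stood at an unadjusted p under 0.05.

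Same-numbered DMSO arrays differed by amounts that varied little for Slco1b2 and Abcb1b, but more for Abcb1a. VC_2 minus VC_1 was 0.60, 0.39 and 0.83 for Abcb1a in the 3 pairs, -0.29, -0.28 and -0.36 for Slco1b2 and 0.01, 0.03 and 0.02 for Abcb1b. A second Abcb1b probe gave -0.27 between the group means, which was not called, so the Abcb1b value depended on the probe. With the same-numbered DMSO arrays as a random block, a fit added after the data were seen, 4 of the 6 members were called, at adjusted p = 1.62e-05 for Abcb1a, 7.22e-07 for Slco1b2, 0.000476 for Abcc2 (0.19 higher in VC_2) and 0.00686 for Abcc3 (-0.23). The same 4 were called from the DMSO arrays alone with a replicate block (0.0205, 0.00799, 0.0383 and 0.0147). These fits called 65.2% and 50% of all genes. The random block applies 1 correlation over all genes (0.887) to each member. The Abcb1a deviations did not follow it, at -0.02, 0.10 and -0.08 in VC_1 and -0.03, -0.11 and 0.14 in VC_2. Lot and slide cannot be told apart, and levels are not set across lots.

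Arrays of one group varied together in some of the transporters. Deviations from the group mean were correlated for all 15 pairs of members. A further 18 relations set each member against the mean of the hepatocyte markers, the 75th percentile of intensity and the spike-in. As same-numbered DMSO arrays deviated together, each DMSO pair was averaged into 1 unit, which leaves 15 units in 5 groups. This form was added after the data were seen. P-values came from 100000 permutations within groups and were adjusted over all 33 relations by Benjamini-Hochberg. The permutations took the groups as independent, though same-numbered DDEB and VC_2 deviations correlated at 0.43, 0.0962 and 0.49. In the 6 pairs among Abcc2, Abcc3, Abcb1b and Slco1a4, Pearson's r lay between 0.85 and 0.95 (adjusted p = 0.0307 to 0.0414) and Spearman's rho between 0.82 and 0.95 (adjusted p = 0.0328 to 0.0659). Of them 5 passed in both measures, and Abcc3 with Slco1a4 passed in r alone. Leaving out the 2 units farthest from the median gave r of 0.76 to 0.91. The 9 pairs that include Abcb1a or Slco1b2 had r between -0.34 and 0.37, and none passed. The share of all gene pairs that correlate as closely was not computed, so the pattern is not shown to be particular to these transporters. Genes outside the members also shifted in the third VC_1 array, such as Hmox1 (5.68, 5.49 and 3.65 in VC_1). Others moved little there, such as Abcg2 (2.78, 2.66 and 2.79 in VC_1).

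With the 18 arrays taken as separate, r in the 6 pairs was 0.80 to 0.93 (adjusted p = 0.00644 to 0.0169) and rho 0.80 to 0.93 (adjusted p = 0.00660 to 0.0204), and these p-values are too small where DMSO arrays share a source. Without the 2 farthest arrays r was 0.73 to 0.92. Within slides r was 0.82 to 0.97 on the slide of DDMB and VC_1, 0.74 to 0.98 on that of DDEB and VC_2 and 0.23 to 0.70 on that of CDMB and CDEB (n = 6, 5 and 6 arrays). The first DDMB and the first DDEB array were low in all 4 genes, and the third DDEB, VC_1 and VC_2 arrays were high in all 4. Abcb1b stood at -0.55 from its group mean in both of those first arrays and at 0.65, 0.57 and 0.57 in the third DDEB, VC_1 and VC_2 arrays.

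The mean of the hepatocyte markers ran the other way. Over the 15 units r was -0.90 for Abcb1b (rho -0.79, adjusted p = 0.0307 for r and 0.0811 for rho) and -0.72 for Abcc2 (rho -0.76, 0.0331 and 0.0659), which passed in r alone. It was -0.78 for Slco1a4 (rho -0.67, 0.0541 and 0.134) and -0.71 for Abcc3 (rho -0.65, 0.0813 and 0.134), which passed in neither measure. Without the 2 farthest units r was -0.88, -0.61, -0.70 and -0.60 for Abcb1b, Abcc2, Slco1a4 and Abcc3. Over the 18 separate arrays all 4 passed in both measures, at r of -0.92, -0.66, -0.81 and -0.71 in the same order (adjusted p = 0.0102 to 0.0284 for r and 0.0210 to 0.0329 for rho). The marker mean stood at 0.28 in the first DDMB array and at -0.18, -0.37 and -0.39 in the third DDEB, VC_1 and VC_2 arrays. On the slide of DDMB and VC_1 these 4 correlations were -0.99 to -0.72 and on that of DDEB and VC_2 -0.94 to -0.54. On the slide of CDMB and CDEB they were positive, 0.04 to 0.75. The marker mean deviated there by only -0.06 to 0.07, too narrow a range to show whether the relation held. The part of the markers in the transporter values was not tested. Neither the 75th percentile nor the spike-in passed for any member, over 15 units or over 18 arrays (r over the arrays from -0.18 to 0.64 and from -0.79 to 0.08). For the same 4 genes, r with the 75th percentile was 0.78 to 1.00 on the slide of DDMB and VC_1. It was 0.21 to 0.67 on that of DDEB and VC_2 and 0.05 to 0.70 on that of CDMB and CDEB. With the spike-in r was -0.97 to -0.74, -0.30 to 0.15 and -0.79 to 0.11 on these slides. Without the DDEB arrays r was 0.70 to 0.98 with the 75th percentile and -0.93 to -0.67 with the spike-in. The values over 18 arrays thus turn on the DDEB arrays. The part of either measure was not tested.

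**Figure D4:**
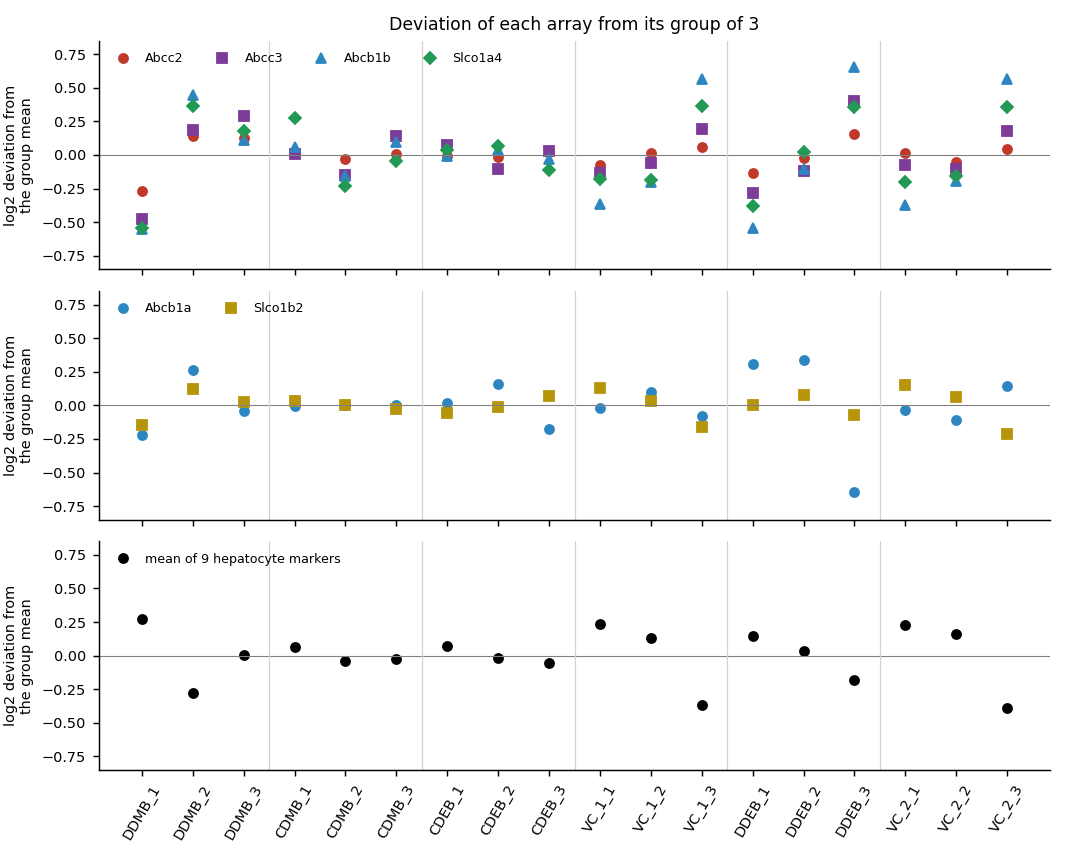
Deviation of each array from the mean of its group of 3 (y axis, log2; x axis: arrays) for Abcc2, Abcc3, Abcb1b and Slco1a4 (top), Abcb1a and Slco1b2 (middle) and the mean of 9 hepatocyte markers (bottom). The 4 genes in the top panel lie low together in DDMB_1 and high together in DDEB_3, VC_1_3 and VC_2_3, where the hepatocyte markers lie on the other side of 0.

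As a description of pattern, each member was set against 10794 genes with a plain symbol, over 18 arrays, on levels minus the mean of the lot's DMSO arrays. The most alike by Pearson's r were Nap1l1 (0.96), Hist3h2ba (0.94) and Tusc2 (0.94) for Abcc2, and Mvk, Ak3 and Slc17a1 (0.92 each) for Abcc3. For Abcb1b they were Stx1a (0.98), Impa2 (0.97) and Lpcat3 (0.97), and for Abcb1a Ythdc1 (0.95), Ccr9 and Rab7a (0.92 each). Pkhd1 (0.95), Ccna2 (0.95) and Dctd (0.94) were nearest to Slco1a4. Slco1b2 had the loosest likeness, with Kynu (0.82), Srebf1 and Notch1 (0.81 each). The 18 arrays share slides, and same-numbered DMSO arrays deviated together, so these values carry no test.

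Other export pumps of hepatocytes did not pass with any compound: 0 of 7 measured genes were called, with medians of 0.05, -0.04, 0.05 and 0.12 for DDMB, CDMB, CDEB and DDEB. Abcb4, which exports phospholipid into bile, read 2.50, 2.20 and 2.49 with DDMB, against 2.13, 2.13 and 1.70 in VC_1 (0.41 ± 0.18, adjusted p = 0.439), and 0.27 with DDEB as a difference from VC_2. Abcb11, the bile salt export pump, differed by 0.23 with DDMB, and Abcc4 by 0.22 with DDEB. Abcc5 differed by -0.47 with CDMB and -0.51 with CDEB, and Abcc6 by 0.44 and 0.38. Several of these values rest on the third DMSO array. Without it Abcb4 differed by 0.27 with DDMB and 0.13 with DDEB, Abcb11 by 0.10, Abcc5 by -0.31 with CDMB and Abcc6 by 0.20 with CDMB and 0.14 with CDEB. Without the third DDEB array Abcb4 differed by 0.48 and Abcc4 by 0.04 with DDEB.

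Among other uptake and exchange carriers 12 of 18 were measured and 0 were called, with medians of -0.21, 0.04, 0.13 and -0.01 for DDMB, CDMB, CDEB and DDEB. Slco1a1, a male-predominant carrier of rat liver that lies near Slco1a4, read -0.81, -0.53 and -0.69 with DDMB, against 0.01, -0.02 and 0.14 in VC_1. The groups did not overlap, and the difference of -0.72 ± 0.17 had a limma adjusted p of 0.0843. With DDEB it was -0.63 ± 0.17 (adjusted p = 0.108), from -1.28, -0.86 and -0.56, against -0.24, -0.42 and -0.17 in VC_2. These groups did not overlap either, which held for 16.5% of all genes. The DDEB difference was -0.80 without the third DDEB array (limma adjusted p = 0.0335) and -0.44 without the first (0.176). Slco1a5 rested on single DDEB arrays, at -1.83, 0.49 and -4.29 against -3.67, -3.50 and -3.41 in VC_2 (1.65 ± 0.77, adjusted p = 0.328). That difference was 0.47 without the second DDEB array and 2.86 without the third. Slco3a1 differed by -0.77 with DDMB, -1.22 with CDMB and -0.74 with CDEB, Slc22a8 by -0.55 with CDMB and Slco1a5 by -0.62 with CDEB. Without the third VC_1 array Slco3a1 differed by -0.27, -0.72 and -0.24. Its DDMB difference was -0.38 without the first DDMB array and -1.23 without the second.

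None of 15 transcription factor genes passed, with medians of 0.07, 0.26, 0.26 and 0.13 for DDMB, CDMB, CDEB and DDEB. Among the largest differences were those of Ppara, the receptor for fatty acids (0.57 with DDMB, 0.69 with CDMB, 0.66 with CDEB), and Nr1i3, which encodes CAR (0.68 with CDMB, 0.61 with CDEB). With DDEB they were Nr0b2 (0.50), which encodes the bile acid-induced repressor SHP, and Rxra (0.24). Without the third control array these were 0.15, 0.27 and 0.25 for Ppara, 0.26 and 0.20 for Nr1i3, 0.11 for Nr0b2 and 0.05 for Rxra. Of 8 measured genes for membrane anchoring none passed against DMSO, with medians of 0.09, 0.05, 0.02 and 0.07. Pdzk1, a scaffold protein gene, differed by 0.52 with DDMB, 0.57 with CDMB, 0.42 with CDEB and 0.50 with DDEB, Msn by -0.50 with CDMB and -0.28 with CDEB, and Myo5b by 0.35 with DDEB. Without the third control array Pdzk1 differed by 0.26, 0.32, 0.16 and 0.23, and Msn by -0.15 with CDEB. Nherf1, another scaffold gene, read 1.45, 1.54 and 1.502 with DDMB, against 1.20, 1.08 and 1.20 in VC_1 (0.34 ± 0.08, adjusted p = 0.0838). It was 0.49 ± 0.08 higher with DDMB than with CDEB (adjusted p = 0.00675), again across slides, and this call was lost with slide as a random block.

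Targets of CAR and PXR outside the transporters had 1 of 12 measured genes called with DDMB, 0 with CDMB, 0 with CDEB and 1 with DDEB, at medians of 0.02, 0.13, 0.09 and 0.20. The gene was Cyp3a23-3a1 both times, a drug-oxidising cytochrome P450. It read 7.61, 7.69 and 8.00 with DDMB, against 7.16, 7.25 and 7.29 in VC_1 (0.53 ± 0.10, adjusted p = 0.0355), and 7.84, 8.06 and 7.85 with DDEB, against 7.20, 7.08 and 7.18 in VC_2 (0.76 ± 0.10, adjusted p = 0.00530). The DDMB call was kept in 10 of 20 alternatives and lost without any 1 VC_1 array, and the DDEB call was kept in 18 of 20. Cyp2b2, a classic CAR target, read 3.98, 3.22 and 4.13 with DDMB, against 5.30, 5.396 and 4.54 in VC_1 (-1.30 ± 0.29, adjusted p = 0.0708), and it was lower with DDMB than with CDMB (-1.49 ± 0.29, adjusted p = 0.0316) and CDEB (-1.54 ± 0.29, adjusted p = 0.0152). These 2 calls between compounds were kept in 11 and 13 of 19 alternatives and lost with slide as a random block. Against VC_1 the Cyp2b2 difference with DDMB was -1.57 without the third VC_1 array (limma adjusted p = 0.0384). It was -1.02 without the second DDMB array (0.175). Aldh1a1 differed by -0.65 with DDMB and -0.72 with CDMB, Por by 0.56 with CDMB, 0.45 with CDEB and 0.53 with DDEB, and Cyp3a9 by 0.28 with CDEB. Without the third control array the values were 0.29, 0.18 and 0.27 for Por and 0.04 for Cyp3a9.

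None of 11 NRF2 targets passed against DMSO, with medians of -0.06, 0.19, 0.15 and 0.16 for DDMB, CDMB, CDEB and DDEB. Gsr differed by 0.31 and Slc7a11 by -0.65 with DDMB, Hmox1 by 0.55 and Gclc by 0.48 with CDMB, Hmox1 by 0.71 and Gclc by 0.46 with CDEB, and Hmox1 by 0.41 with DDEB. Without the third control array Hmox1 turned to -0.09 with CDMB and -0.27 with DDEB and was 0.07 with CDEB, and Gclc was 0.17 with CDMB and 0.15 with CDEB. Slc7a11 ranged over -0.98 to -0.32 as single arrays were left out. Gclm differed by -0.99 with DDEB, where it was well above background on 2 of 3 arrays, and by 0.13 without the third DDEB array. Between the DMSO groups Slc16a1 (-0.47), Slc22a5 (0.64), Keap1 (0.40), Nr5a2 (-0.32), Atp8b1 (-0.30) and Gsta2 (0.56) were called, VC_2 minus VC_1. In this comparison 21.7% of all genes were called. Leaving out single DMSO arrays raised the limma adjusted p to as much as 0.0709 for Slc16a1, 0.0571 for Keap1 and 0.0513 for Atp8b1. The calls of Slc22a5 and Nr5a2 were kept in each omission.

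**Figure D5:**
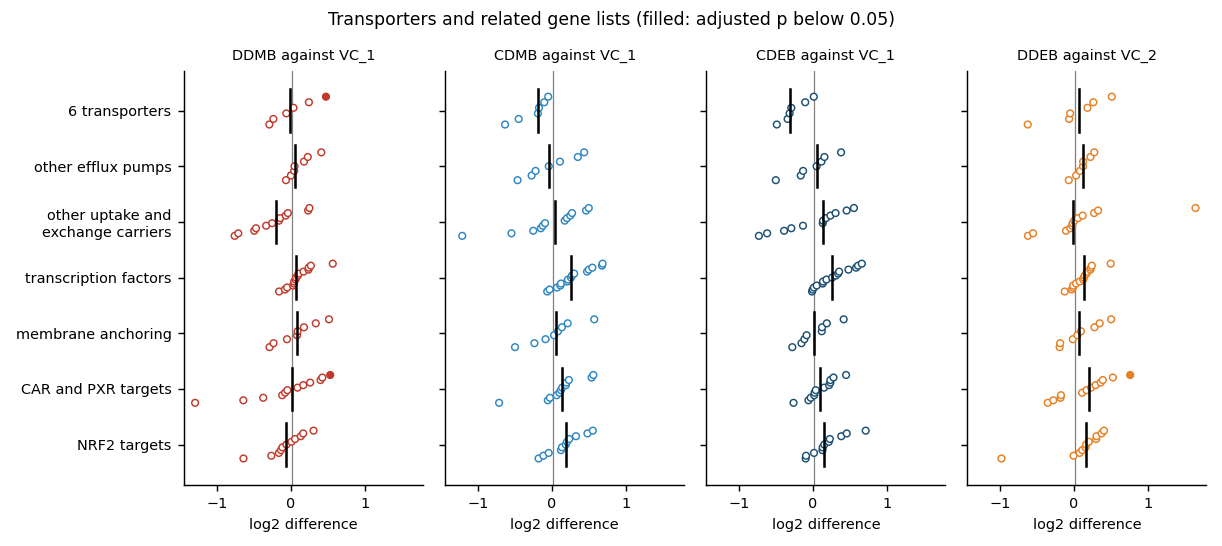
Log2 difference from DMSO (x axis) for the 6 transporters and the genes of the 6 related lists, 1 panel per compound. Points are genes, filled where the adjusted p is below 0.05, black bars are list medians and the grey line is the median of all genes. Filled points are Abcc2 and Cyp3a23-3a1 with DDMB and Cyp3a23-3a1 with DDEB.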

How the data were processed

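RNA of 18 samples was hybridised to 1-colour Agilent arrays. Per the file headers, the deposited scanner files give spot intensity from Agilent Feature Extraction 10.7.1.1, background-subtracted and detrended within each array, with probes designed on build rn4. The authors' deposited tables, 1 set for each of the 2 chip lots, hold linear signal and served as an alternative. Their scaling is not stated in the labels or headers. The log2 intensity was averaged over unflagged spots per probe and the array's 75th percentile subtracted, taken over the 45163 probes unflagged on every array. That percentile was first taken over all 45598 probes. The present form was adopted after both results had been seen, to follow an earlier processing of these data, and it moves Abcc2 with DDMB across the threshold (adjusted p = 0.0509 before and 0.0494 after).

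Probes named through accessions in the RefSeq gene table (21109) were kept, with the others by accession, when well above background in all 3 arrays of a group (25306 probes). Each gene took its brightest kept probe. All 10 probes of the transporters were kept, and the 6 used were well above background on all 18 arrays. The fit used limma's lmFit and eBayes (version 3.58.1, under R 4.3.3), with 1 mean per group over the 18 arrays and 12 residual degrees of freedom. P-values were adjusted by Benjamini-Hochberg over 21574 genes within each comparison and called below 0.05. The fit was tested on simulated data with independent noise on each array and changes larger than that of Abcc2 with DDMB. The simulation held no slide effect and no shared deviations of DMSO arrays, so it does not speak to these. Correlations used Python 3.11.15 and numpy 2.4.6. The number of arrays limits the precision. Named genes are the 6 members, list members called or otherwise the 2 of largest difference, and the 3 genes most alike; Abcb4, Nherf1 and Slco1a1 values per array were added after being seen. The members and lists were chosen with earlier results of these data known. By the rule that every correlation of same-numbered deviations be above 0.1, replicate numbers did not pair compound and control samples (-0.42 to 0.56). DDEB and VC_2 missed the rule narrowly, at 0.43, 0.0962 and 0.49, and the own number correlated best for 2 of the 3. Replicate numbers paired VC_2 and VC_1 by this rule (0.47 to 0.81). The fits with same-numbered DMSO arrays as a random block (consensus correlation 0.887) or with DMSO arrays alone, the correlations over 15 units and the omission of single arrays for list genes were added after the data were seen. The planned normexp correction called for mean spot signal. The median spot signal was used in its place, a choice made after seeing the data, as were the other forms of the 75th percentile. Some results on a transcription factor are not reported here.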

Additional observations from a re-analysis of the deposited data

Results flagged for a closer look

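Abcc2 differed between compounds given at the same dose and time. It was higher with DDMB than with CDMB by 0.67 (log2, limma adjusted p = 0.00912) and higher with DDMB than with CDEB by 0.79 (adjusted p = 0.00197), and in both cases all 3 DDMB arrays lay above all 3 arrays of the other compound. These compounds were hybridised on different slides. With slide as a random block the adjusted p was 1.00 and 0.616.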

How the results depend on the processing

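Over 28 results and their alternatives, 544 values were recomputed. Of these 487 kept direction and side of the threshold, 42 lost a call and 15 changed sign. The single DDMB call against VC_1, Abcc2, became 0 members called under normexp on the median signal, quantile normalization, the median of detected probes, the 75th percentile over all probes or over spots, no filter on dim probes, the mean of kept probes, only the arrays compared, the deposited tables and same-numbered DMSO arrays as a random block. It was kept, at adjusted p = 0.0373, 0.0301, 0.0255 and 0.0298, with a filter for detection on every array, slide as a random block, slide as a fixed block and a replicate block. DDMB and VC_1 arrays share a slide, so the slide blocks cannot move their difference and alter only its SE. The fixed block only sets apart the third DDEB array, which lay alone on its slide. Without 1 replicate the count was 0 to 1. For DDMB minus CDMB it was 0 with only the arrays compared and with slide as a random block, and 0 to 1 without 1 replicate. For DDMB minus CDEB it was 0 in the same 2 settings. For VC_2 minus VC_1 the 2 calls became 1 under normexp, quantile normalization, the median, the percentile over spots and only the arrays compared, 0 with the mean of kept probes and with slide as a random block, and 0 to 1 without 1 replicate. They became 4 with same-numbered DMSO arrays as a random block and 4 with the DMSO arrays alone and a replicate block.

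Differences that changed sign were all uncalled. Slco1b2 with CDMB was 0.0063 with the mean of kept probes, Slco1b2 with CDEB -0.0033 with the percentile over spots, and Abcc3 with DDEB -0.020 with slide as a fixed block. Without 1 replicate Abcc3 ranged over -0.11 to 0.27 with DDMB, -0.12 to 0.046 with CDMB and -0.020 to 0.32 with DDEB, Abcb1a over -0.20 to 0.047 with DDMB, Slco1b2 over -0.072 to 0.075 with CDEB and -0.17 to 0.0076 with DDEB, and Slco1a4 over -0.23 to 0.14 with DDEB. The cause was not tested. The replicate block over all groups changed no call. Every group holds each replicate number once, so this block cannot move a group difference and alters only its SE. The unchanged Abcc2 difference of 0.47 with DDMB is therefore no test of it. Slide as a fixed block could not be fitted where slide and group coincide, and the deposited tables of the 2 lots were not set against each other.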
